A study of Mus musculus with 9 samples.

Results

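The genes of the proteasome were examined in RNA from synaptoneurosomes of the mouse hippocampus. Members were all rows of the count table whose Ensembl identifier maps to a symbol that begins with Psma, Psmb, Psmc, Psmd, Psme, Psmf or Psmg followed by a digit. This rule found 50 of the 22255 genes in the table. There were 19 genes of the core particle (Psma and Psmb), 20 of the regulatory particle and its assembly (Psmc and Psmd), 10 of the other caps, the inhibitor and the core chaperones (Psme, Psmf and Psmg), and Psmc3ip. Psmc3ip encodes a recombination cofactor and matches the rule by its symbol alone. A filter on low counts kept 47 members for testing.

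The proteasome is a barrel-shaped protease that breaks down proteins tagged with ubiquitin. Its core particle is built from rings of alpha subunits, which gate the entry, and rings of beta subunits, of which Psmb5, Psmb6 and Psmb7 carry the catalytic sites. The regulatory particle caps the core: a ring of ATPases unfolds substrates, and a lid removes their ubiquitin. In neurons, proteasomes are present at synapses, where they take part in the turnover of synaptic proteins. Immune cells and cells exposed to interferon can exchange the catalytic subunits for Psmb8, Psmb9 and Psmb10.

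Both groups of mice were Fmr1 KO animals on the C57Bl/6J strain, a model of fragile X syndrome in which the protein FMRP is lost. One group of 4 samples (A, B, C and E) came from mice given AM6545 sub-chronically, and the other group of 5 samples (A to E) came from mice given vehicle. AM6545 blocks the cannabinoid receptor CB1 and enters the brain poorly, and the series asks how blocking CB1 outside the brain acts in this model. No wild-type mice were analysed here, and age, sex, dose and length of treatment are not given in the sources used here. A synaptoneurosome fraction is a filtered homogenate enriched in pinched-off terminals and spines, and it can also hold RNA of glia and cell bodies. The labels do not say whether each sample is a separate animal, so p-values measure the spread between these samples, which may be technical in part.

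Stretches of upstream sequence of 6 members show the kinds of promoter found across the complex. They were chosen as the catalytic genes Psmb5 and Psmb6, which hold the core of an antioxidant response element (the site type of the factor Nfe2l1), as the regulatory genes Psmd2, Psmc2 and Psmd12, which hold an ETS motif, and as Psmd10, whose group ranges did not overlap. Each is the 150 bases before a transcription start in RefSeq, in assembly GRCm38.p6, written 5′ to 3′ on the strand of the gene, and none of these bases is transcribed from that start. Capitals mark motif matches on either strand.
Psmb5 (chr14:54617996-54618145, minus strand) has the antioxidant response element core in capitals, 47 to 39 bases before the start.
Psmb5: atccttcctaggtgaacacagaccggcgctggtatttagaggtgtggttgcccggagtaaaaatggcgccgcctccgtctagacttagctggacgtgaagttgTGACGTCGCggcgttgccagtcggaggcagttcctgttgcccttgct
Psmb6 (chr11:70525207-70525356, plus strand) has the same element, 9 to 1 bases before the start.
Psmb6: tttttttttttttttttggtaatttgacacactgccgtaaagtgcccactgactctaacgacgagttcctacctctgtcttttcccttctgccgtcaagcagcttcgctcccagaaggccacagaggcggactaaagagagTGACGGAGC
Psmd2 (chr16:20651502-20651651, plus strand) has an ETS motif 26 to 20 bases and a GC box 52 to 47 bases before the start.
Psmd2: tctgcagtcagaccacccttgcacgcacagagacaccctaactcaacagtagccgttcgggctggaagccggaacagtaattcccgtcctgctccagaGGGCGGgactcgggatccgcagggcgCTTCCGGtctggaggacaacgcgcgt
Psmc2 (chr5:21786597-21786746, plus strand, 1 of its starts) has an ETS motif 24 to 18 bases before the start.
Psmc2: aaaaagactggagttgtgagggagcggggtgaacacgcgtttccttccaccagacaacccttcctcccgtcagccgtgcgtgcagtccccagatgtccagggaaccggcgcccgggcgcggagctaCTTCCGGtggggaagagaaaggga
Psmd12 (chr11:107479378-107479527, plus strand) has an ETS motif 17 to 11 bases before the start.
Psmd12: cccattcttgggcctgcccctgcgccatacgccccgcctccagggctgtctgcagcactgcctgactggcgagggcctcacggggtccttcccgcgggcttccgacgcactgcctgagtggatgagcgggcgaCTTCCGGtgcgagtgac
Psmd10 (chrX:140956712-140956861, minus strand) has a GC box 79 to 74 bases and CCAAT boxes 47 to 43 and 24 to 20 bases before the start.
Psmd10: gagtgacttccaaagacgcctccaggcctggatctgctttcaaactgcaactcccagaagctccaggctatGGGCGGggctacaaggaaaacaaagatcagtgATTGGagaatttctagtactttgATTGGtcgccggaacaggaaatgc

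RefSeq windows were matched by symbol for 42 of the 50 members, and 250 bases upstream of each start were searched on both strands. Psma8, Psmb1, Psmb2, Psmb7, Psmc3, Psmd3, Psmd7 and Psmg2 had no window in the table used. The ETS motif CCGGAAG was found in 13 of the 42 members (31%) and in 6.91% of all 32851 windows. It was in 8 of 14 regulatory particle genes (Psmc1, Psmc2, Psmc6, Psmd2, Psmd4, Psmd6, Psmd11 and Psmd12) and in 1 of 11 core genes (Psma6). The GC box GGGCGG was found in 22 members (52.4%) and in 32.7% of all windows. The antioxidant response element core TGACNNNGC was found in 5 members (Psmb5, Psmb6, Psmc6, Psmd9 and Psmd12; 11.9%) and in 10.2% of all windows. The CCAAT box was in 15 members (35.7%) and in 33.8% of all windows, the core of an interferon-stimulated response element (GAAA, any 2 bases, GAAA) in 3 members (7.14%) and 2.98%, and TATAAA in 4 members (9.52%) and 12.4%. A member counts once when any of its starts has the motif, while the shares of all windows are per start. These are letter matches, and none was examined for binding.

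Between 17628922 and 27263393 counts were assigned to genes in each sample. Members took 0.633%, 0.669%, 0.624% and 0.488% of the counts in AM6545 samples A, B, C and E, and 0.544%, 0.575%, 0.620%, 0.650% and 0.644% in vehicle samples A to E. AM6545 sample E therefore had the lowest share, and vehicle sample A the next lowest. Mitochondrial genes took from 4.06% to 7.90% of the counts, with 6.73% in AM6545 sample E and 7.90% in vehicle sample A. They took 6.54% in vehicle sample D, where the share of the members was 0.650%. The 8 excitatory neuron markers summed to 7188 to 8281 CPM (read counts brought to a common library size with TMM) in the AM6545 samples and to 7005 to 9201 CPM in the vehicle samples. All 8 had counts, which shows neuronal RNA but cannot check the labels of hippocampus or synaptoneurosomes. Markers of glia, vessels and choroid plexus were also present, and their values are given further below.

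No member passed the test between AM6545 and vehicle: 0 of 47 had an adjusted p under 0.05, where 0 of all 14512 tested genes (0%) did (edgeR's quasi-likelihood test with Benjamini-Hochberg adjustment). The smallest adjusted p among members was 0.653. At an unadjusted p under 0.05 there was 1 member, Psmd10, against 7.21% of all tested genes, and 4.18% were lower in AM6545, as Psmd10 was. By DESeq2 and by limma-voom no member passed the adjusted threshold either, and 0 and 1 member had an unadjusted p under 0.05. Estimates of the log2 fold change ran from -0.22 (Psmd10) to 0.27 (Psmd2), with standard errors from 0.09 to 0.33. A member whose p misses the threshold is not thereby shown to be equal between the groups.

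The estimates lay below 0 for 34 of the 47 tested members, and 51.8% of all tested genes lay below 0. Their median log2 fold change was -0.05, and the median over all tested genes was -0.01. AM6545 sample E had the lowest level of the 9 samples for 33 of the 47 members, while 14.1% of all tested genes were lowest there. Vehicle sample D had the highest level for 20 of the 47 members, against 8.89% of all tested genes. Without AM6545 sample E the median over the members was 0.02, and 26 of the 47 lay above 0, against 46.3% of all genes tested without it. The side of 0 on which most members lay thus turned when this 1 library was left out. The sample was lowest for 14 of the 14 tested core ring genes, 12 of the 17 regulatory genes, 1 of the 5 tested caps and 0 of the 3 tested immune beta genes, as the heatmap of the tested members shows. For the immune gene Psmb10 it nearly tied with the lowest, at 22.72 against 22.69 CPM in vehicle sample B.

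**Figure D1:**
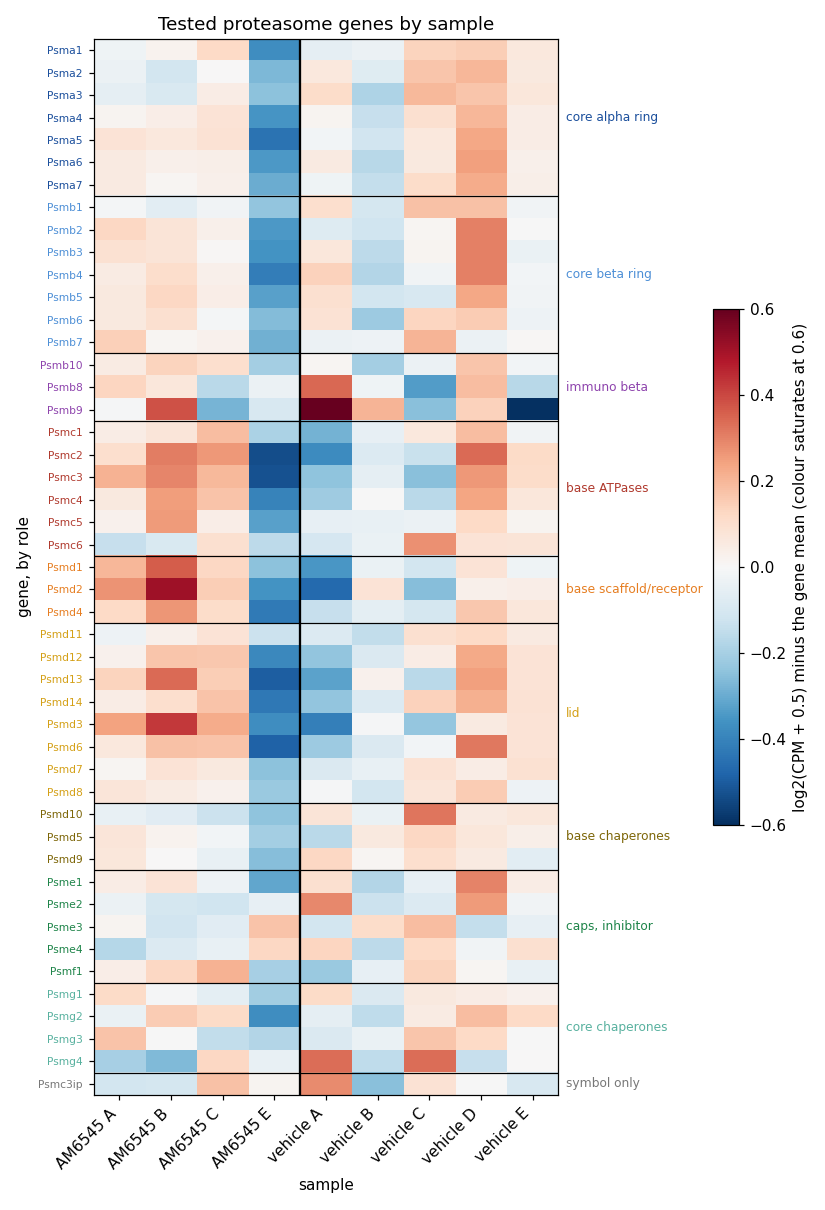
Each row is a tested member, grouped by role, and each column a sample. Colour gives the log2(CPM + 0.5) minus the mean of the gene over the 9 samples, and it saturates at 0.6. AM6545 sample E is the lowest of the 9 samples for 33 of the 47 members, and vehicle sample D is the highest for 20.

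Transcripts of the core rings and of the regulatory particle moved together from sample to sample, more so within each than over all members. The median Pearson correlation of log2 CPM between pairs of genes was 0.85 within the 14 tested alpha and constitutive beta genes of the core and 0.80 within the 17 genes of the regulatory particle, over 9 samples. Between core and regulatory genes it was 0.67, over pairs of all 47 tested members 0.58, and over pairs of all tested genes -0.01. Without AM6545 sample E these medians were 0.72 within the core, 0.72 within the regulatory particle and 0.32 between them. Over all 47 tested members the median was then also 0.32. The 3 tested immune beta genes correlated with the core genes at a median of 0.21 with and without that sample. That median pools Psmb10 with Psmb8 and Psmb9, which rest on few counts. These values describe 9 libraries that share their group effects, depth and scaling, and no test was made of them.

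The alpha ring gates the channel of the core and anchors the caps. Its 7 tested genes all had estimates below 0, from -0.19 (Psma2) to -0.08 (Psma5), with a median of -0.10, and none passed the test. Without AM6545 sample E the median was -0.01, and 1 of the 7 lay above 0. Psma2 had the smallest p of the ring. Its level was 166, 158, 170.4 and 141 CPM in AM6545 samples A, B, C and E, and 178, 162, 191, 195 and 177 CPM in vehicle samples A to E. AM6545 samples A and C lay inside the vehicle range, samples B and E lay below it, and the groups overlapped. The group means were 159 ± 13.0 CPM (SD, n = 4) and 181 ± 13.3 CPM (SD, n = 5). The log2 fold change was -0.19 ± 0.10 (SE), with an adjusted p of 0.653 by edgeR. Psma8, which replaces an alpha subunit in the testis, had at most 13 counts in any sample and was not tested.

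The constitutive beta ring had 7 tested genes, all with estimates below 0, from -0.15 (Psmb1) to -0.04 (Psmb5), with a median of -0.05. None passed the test. Without AM6545 sample E the median was 0.02, and 6 of the 7 lay above 0. Psmb1, a beta subunit without a catalytic site, had the smallest p of the ring. Its level was 156, 150.5, 155 and 133 CPM in AM6545 samples A, B, C and E, and 169, 146, 178, 178 and 155 CPM in vehicle samples A to E. Only AM6545 sample E lay below all vehicle samples, so the groups overlapped. The log2 fold change was -0.15 ± 0.10 (SE), with an adjusted p of 0.675 by edgeR.

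Psmb5 carries the chymotrypsin-like site of the core, the main target of proteasome inhibitors. It was at 161, 169, 159 and 124 CPM in AM6545 samples A, B, C and E, and at 165, 144, 145, 182 and 153 CPM in vehicle samples A to E. AM6545 sample E was the lowest of all 9, and the other 3 AM6545 samples lay inside the vehicle range. Psmb6, with the caspase-like site, was at 128, 131, 122 and 102 CPM in the AM6545 samples and at 130.2, 106, 134, 136 and 120.2 CPM in the vehicle samples, in the same order. Here too AM6545 sample E lay lowest, next to vehicle sample B. Psmb7, with the trypsin-like site, was at 100.1, 91.6, 92.5 and 74.1 CPM in the AM6545 samples and at 88.4, 88.7, 104.7, 88.4 and 91.2 CPM in the vehicle samples. Its vehicle samples lay close together except sample C, which stood above the other 4, and again AM6545 sample E was lowest. The log2 fold changes were -0.04 ± 0.11 (SE) for Psmb5, -0.05 ± 0.11 for Psmb6 and -0.04 ± 0.10 for Psmb7, and each was above 0 without AM6545 sample E, at 0.05, 0.02 and 0.04. Psmb5 and Psmb6 are the genes whose upstream stretches with the response element core are printed above.

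The immune counterparts of these sites were at far lower levels, and for Psmb8 and Psmb9 the samples were ordered differently. Psmb8, which replaces Psmb5, was at 6.20, 5.93, 4.98 and 5.48 CPM in AM6545 samples A, B, C and E, and at 7.28, 5.53, 4.37, 6.47 and 4.96 CPM in vehicle samples A to E. Psmb9, which replaces Psmb6, was at 2.02, 2.80, 1.59 and 1.87 CPM in the AM6545 samples and at 3.81, 2.42, 1.63, 2.28 and 0.905 CPM in the vehicle samples. For both genes vehicle sample A was the highest of all 9, and the AM6545 samples lay inside the vehicle range. Psmb10, which replaces Psmb7, was at 27.2, 28.9, 28.2 and 22.7 CPM in the AM6545 samples and at 26.4, 22.7, 25.5, 29.5 and 25.9 CPM in the vehicle samples. Its lowest values were those of vehicle sample B and AM6545 sample E, so for this gene the groups also overlapped. Vehicle sample D was highest and AM6545 sample B next, as for Psmb5. The log2 fold changes were -0.02 ± 0.16 (SE) for Psmb8, -0.08 ± 0.33 for Psmb9 and 0.04 ± 0.11 for Psmb10. The 9 microglia markers, 9 of 9 detected, summed to 954 to 1215 CPM in the AM6545 samples and to 692 to 1134 CPM in the vehicle samples, and the part of these cells in the levels of the immune subunits was not tested. Psmb11, the catalytic subunit of the thymus, had at most 12 counts in any sample and was not tested.

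**Figure D2:**
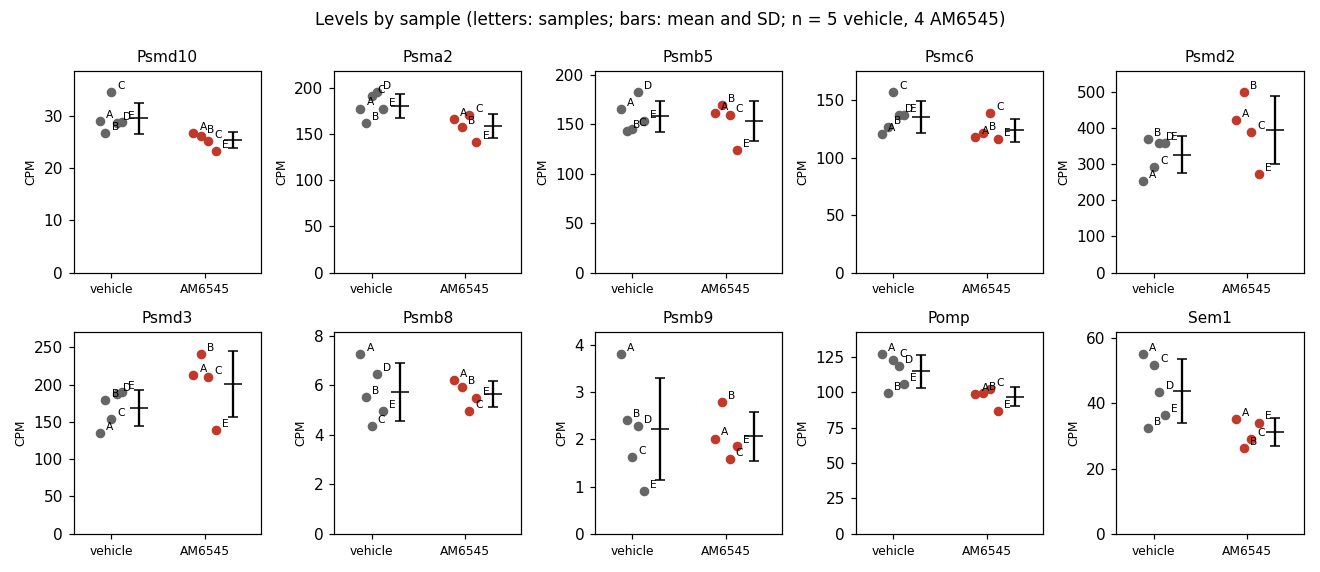
Levels in CPM of 8 members and of the assembly factor Pomp and the lid subunit Sem1, by sample. Points are samples with their letters, and bars are the mean and SD of 5 vehicle and 4 AM6545 samples. Psmd10 is the panel of a member whose group ranges do not overlap, by a margin of 26.62 against 26.64 CPM, and in Psmd2 and Psmd3 AM6545 sample E lies with the lowest vehicle samples.

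The base of the regulatory particle opens and feeds the core. Its ATPases Psmc1 to Psmc6 had 5 estimates above 0 and 1 below, with a median of 0.05, against 48.2% of all tested genes above 0. They ran from -0.13 (Psmc6) to 0.10 (Psmc3), and none passed the test. Psmc6 had the smallest p of the ring. It was at 118, 122, 139 and 116 CPM in AM6545 samples A, B, C and E, and at 121, 126, 157, 137 and 137 CPM in vehicle samples A to E. The groups overlapped, with sample C highest in each, and the log2 fold change was -0.13 ± 0.10 (SE), with an adjusted p of 0.713 by edgeR. Without vehicle sample A the median of the ATPases was -0.002, and 1 of the 6 lay above 0. Without AM6545 sample B, the highest of the AM6545 samples for most of them, their median was -0.02.

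The scaffold subunits Psmd1 and Psmd2 and the ubiquitin receptor Psmd4, which dock ubiquitin-tagged proteins and hold the base together, had 3 of 3 estimates above 0. They were 0.27 for Psmd2, 0.21 for Psmd1 and 0.05 for Psmd4, with a median of 0.21. Psmd2 was at 423, 499.5, 388 and 273 CPM in AM6545 samples A, B, C and E, and at 254, 371, 293, 358 and 360.0 CPM in vehicle samples A to E. The AM6545 samples A, B and C lay above all vehicle samples, and sample E lay between vehicle samples A and C. The means were 396 ± 94.3 CPM (SD, n = 4) and 327 ± 51.4 CPM (SD, n = 5). The log2 fold change was 0.27 ± 0.16 (SE), with an adjusted p of 0.662 by edgeR. A transcribed pseudogene of Psmd2 (Gm5422) is 96.4% identical over 2726 bases and has no row in the table used here, so how its reads were assigned is unknown and the level of Psmd2 is uncertain to that extent.

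The lid cuts ubiquitin chains off the substrate, through Psmd14, and its other subunits form the frame around that enzyme. Of its 8 genes, 2 lay above 0 and 6 below, with a median of -0.02 and a range from -0.04 (Psmd14) to 0.25 (Psmd3). Psmd3, a subunit of that frame, had the smallest p. It was at 213, 241, 210.1 and 139 CPM in AM6545 samples A, B, C and E, and at 135, 179, 153, 187 and 190.2 CPM in vehicle samples A to E. Its samples were ordered much as for Psmd2: AM6545 A, B and C were the highest, and AM6545 E and vehicle A the lowest. The log2 fold change was 0.25 ± 0.15 (SE), with an adjusted p of 0.662 by edgeR.

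Without AM6545 sample E, the sample where most members were lowest, 48 members were tested. Of these, 3 had an unadjusted p under 0.05 by edgeR, against 12.6% of all genes tested without it. The 3 members did not exceed the share over all genes. They were Psmd2 with a log2 fold change of 0.42 ± 0.14 (SE), Psmd3 with 0.39 ± 0.12 and Psmd1 with 0.31 ± 0.11, each with an adjusted p of 0.360 by edgeR. Without that sample 16 of the 17 regulatory genes and 7 of the 14 core genes lay above 0, and the medians were 0.12 and 0.003. Without vehicle sample A, where Psmd1, Psmd2 and Psmd3 were lowest of the vehicle samples, their values were smaller: 0.20 for Psmd2 and 0.18 for Psmd3, and the median of the 17 regulatory genes was -0.002. Without AM6545 sample B, the highest of all 9 for these genes, they were smaller still, at 0.14 for Psmd2 and 0.15 for Psmd3, and the median of the 17 genes was -0.03. The plot of fold changes shows the estimates with and without AM6545 sample E.

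**Figure D3:**
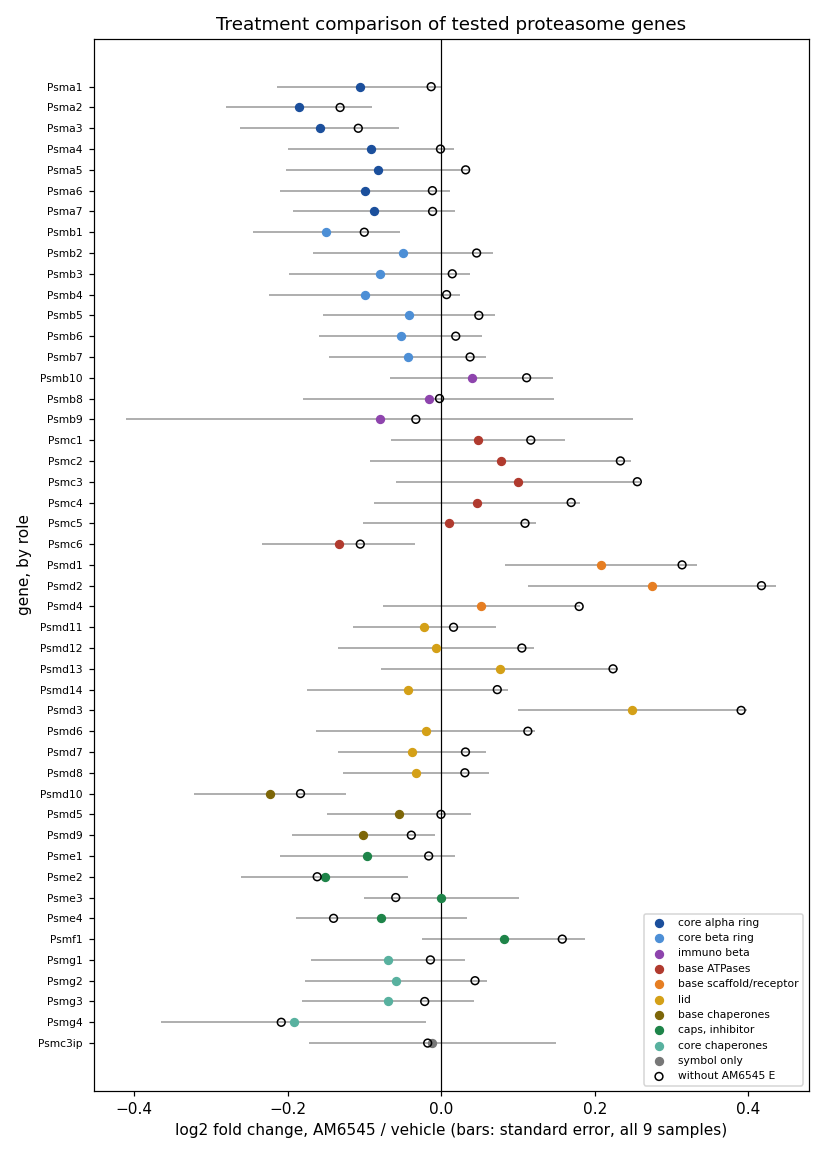
Each row is a tested member, and the x axis is the log2 fold change of AM6545 over vehicle. Filled points with bars are the estimate and standard error over all 9 samples, coloured by role, and open circles are the estimates without AM6545 sample E. All 14 core ring genes lie below 0 over 9 samples, and 7 of the 14 lie above 0 without that sample.

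The chaperones that build the base, Psmd5, Psmd9 and Psmd10, had 3 of 3 estimates below 0, with a median of -0.10. Psmd10 (gankyrin) escorts ATPases into the base and is also known as an oncoprotein of the liver. It was at 26.62, 26.1, 25.1 and 23.2 CPM in AM6545 samples A, B, C and E, and at 28.9, 26.64, 34.4, 28.5 and 28.8 CPM in vehicle samples A to E. The highest AM6545 sample lay just under the lowest vehicle sample, so the ranges did not overlap, and vehicle sample C stood highest. Ranges lay apart for 1 of the 47 members, against 1.45% of all tested genes, and 0.868% lay apart in this direction. The means were 25.3 ± 1.53 CPM (SD, n = 4) and 29.5 ± 2.92 CPM (SD, n = 5). The log2 fold change was -0.22 ± 0.10 (SE), its unadjusted p was 0.0415 and its adjusted p 0.653 by edgeR. When any 1 sample was dropped the estimate ran from -0.25 to -0.16.

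Of the other caps and the inhibitor, 2 of 5 tested genes had estimates above 0, with a median of -0.08. Psme1 and Psme2 form an activator cap that interferon induces, Psme3 forms a nuclear cap, Psme4 is a large single-chain cap, and Psmf1 inhibits the core. Psme2 had the smallest p of these. It was at 28.2, 26.9, 26.6 and 27.97 CPM in AM6545 samples A, B, C and E, and at 35.5, 26.4, 27.3, 34.7 and 28.5 CPM in vehicle samples A to E. The AM6545 samples lay close together, inside the vehicle range, while vehicle samples A and D stood higher. Its log2 fold change was -0.15 ± 0.11 (SE), with an adjusted p of 0.701 by edgeR. Transcripts of Psme2 and Psme2b are 99.4% identical over 794 bases, so reads can be split between these genes, and Psme2b itself had at most 11 counts in any sample. Psme3 and Psme4 ran against most members: AM6545 sample E was the highest of the AM6545 samples for both, at 180.1 and 14.2 CPM.

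The chaperones of the core, Psmg1 to Psmg4, help its rings assemble. Their 4 estimates lay below 0, from -0.19 (Psmg4) to -0.06 (Psmg2), with a median of -0.07. Psmg4 was at 3.88, 3.69, 4.98 and 4.37 CPM in AM6545 samples A, B, C and E, and at 5.84, 4.03, 5.84, 4.06 and 4.53 CPM in vehicle samples A to E. The groups overlapped, and vehicle samples A and C stood highest. Its log2 fold change was -0.19 ± 0.17 (SE), with an adjusted p of 0.749 by edgeR. Psmc3ip, the gene that only shares the symbol, was at 3.93, 3.94, 4.89 and 4.33 CPM in the AM6545 samples and at 5.32, 3.51, 4.57, 4.27 and 3.97 CPM in the vehicle samples. Its AM6545 samples lay inside the vehicle range, with a log2 fold change of -0.01 ± 0.16 (SE). Its transcript overlaps Mlx on the opposite strand by 385 bases, and the strand setting of the counts is not given in the sources used here.

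Levels can be compared between members only per length, so CPM were divided by the length of the main protein-coding transcript in kilobases. The tested constitutive core and regulatory genes lay between 58.3 CPM per kb (Psmc6) and 198 CPM per kb (Psmc5), as means of 9 samples. The medians were 126 CPM per kb over the 14 core genes and 121 CPM per kb over the 17 regulatory genes. Within this range Psmb5 was at 173 ± 18.9 CPM per kb (SD, n = 9), Psmb6 at 155 ± 15.2 and Psmb7 at 78.5 ± 7.30. A pseudogene of Psmb5 (Gm3375) is 98.9% identical over 796 bases and was not counted, so the level of Psmb5 is uncertain to that extent. The immune subunits were lower, at 20.1 ± 1.86 CPM per kb for Psmb10, 3.49 ± 0.546 for Psmb8 and 1.59 ± 0.614 for Psmb9. Core assembly chaperones ranged from 8.25 (Psmg4) to 30.8 CPM per kb (Psmg2), and tested caps and the inhibitor from 2.01 (Psme4) to 60.3 CPM per kb (Psme3). Psmb8 and Psmb9 rested on at most 153 and 66 counts in a sample. A transcript length other than that of the form expressed here would move these values.

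**Figure D4:**
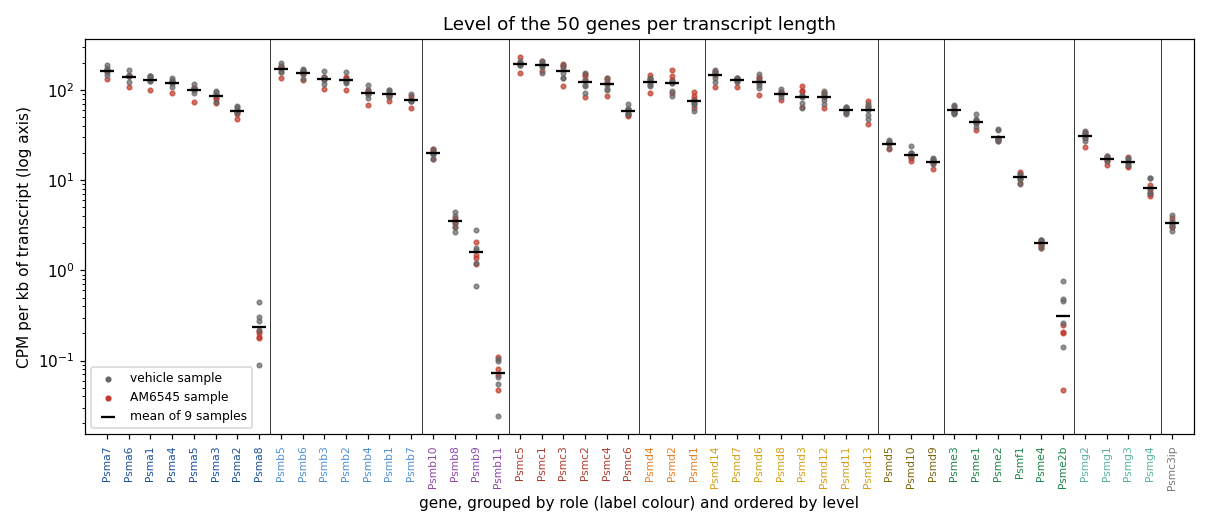
Level of each of the 50 members in CPM per kb of transcript, on a log axis, grouped by role and ordered by level within a role. Grey points are vehicle samples, red points AM6545 samples and black bars the mean of 9 samples. The tested genes of the core rings, the base and the lid lie between 58.3 and 198 CPM per kb, and the immune subunits Psmb8 and Psmb9 lie at 3.49 and 1.59 CPM per kb.

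Levels were also averaged over each particle in every sample. The mean over the 14 core genes was 122, 121, 121 and 93.6 CPM per kb in AM6545 samples A, B, C and E, and 121, 107, 124, 136 and 119 CPM per kb in vehicle samples A to E. The mean over the 17 regulatory genes was 121, 133, 126 and 88.9 CPM per kb in the AM6545 samples and 97.8, 110, 111, 129 and 118 CPM per kb in the vehicle samples. AM6545 sample E was the lowest of all 9 for both particles, and vehicle sample D the highest for the core. The ratio of regulatory to core level was 0.996, 1.10, 1.04 and 0.950 in AM6545 samples A, B, C and E, and 0.812, 1.025, 0.891, 0.944 and 0.996 in vehicle samples A to E. Its means were 1.02 ± 0.0623 (SD, n = 4) and 0.934 ± 0.0851 (SD, n = 5), and the groups overlapped, with vehicle sample A lowest. In that ratio AM6545 sample E lay next to vehicle sample D, whose core level was the highest.

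**Figure D5:**
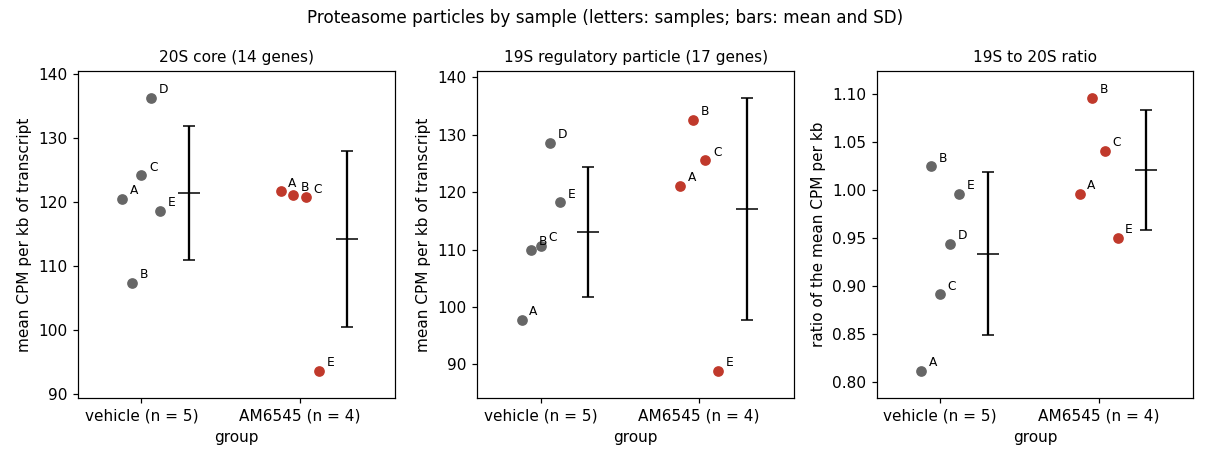
Mean CPM per kb over the 14 core genes and over the 17 regulatory genes, and the ratio of these means, by sample. Points are samples with their letters, and bars are the mean and SD of each group. AM6545 sample E lies lowest in both particles, at 93.6 and 88.9 CPM per kb, and the ratio overlaps between the groups.

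Transcript length differed between the particles, and an alternative setting that uses length changed the estimates. The median length was 1162 bases for the core genes, 1636 for the regulatory genes and 3060 for all tested genes. With the trend of each sample against transcript length removed, the median over the members was 0.04, and 35 of the 47 lay above 0, against 48.8% of all tested genes. The core genes then had a median of 0.02, with 10 of 14 above 0, and the regulatory genes 0.09, with 14 of 17 above 0. The majority below 0 among the core genes turned under that setting, with 6 of 7 beta ring genes and 4 of 7 alpha ring genes above 0. No member passed the test under that setting either, and the part of length in the estimates was not tested.

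Marker genes of other cells also differed between the samples that stood apart. In AM6545 sample E the 9 microglia markers summed to 1215 CPM, the highest of the 9 samples, and the other 8 lay between 692 and 1134 CPM. The 7 oligodendrocyte markers there summed to 18850 CPM and the 7 astrocyte markers to 3086 CPM, both inside the range of the other samples. In vehicle sample A, the lowest vehicle sample for the base, the oligodendrocyte markers summed to 22520 CPM and the astrocyte markers to 3246 CPM, the highest of the 9 samples. In vehicle sample D, where many members were highest, the oligodendrocyte, astrocyte and microglia markers summed to 18030, 2935 and 1069 CPM. The oligodendrocyte and astrocyte sums there lay near those of AM6545 sample E. The 7 choroid plexus markers summed to 65.8 to 980.5 CPM in the AM6545 samples and to 52.3 to 4499 CPM in the vehicle samples. Vehicle samples A, D and E were highest, at 4135, 4499 and 2217 CPM. Estimates for all 7 lay below 0, where 51.8% of all tested genes did, with a median log2 fold change of -1.55. None of the 7 passed the adjusted test. Inhibitory neuron markers ranged from 718 to 863 CPM and from 769 to 885 CPM, with AM6545 sample E lowest, and endothelial markers from 16.9 to 24.4 CPM and from 10.97 to 35.5 CPM. Every marker had counts in at least 1 sample. In RNA from a mixed fraction, fewer cells or terminals of a type and less RNA in each cannot be told apart, and the part of these markers in the levels of the members was not tested.

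Partners of the complex were read from lists of related genes, of which none passed the adjusted test. Among 9 tested subunits and partners outside the symbol rule, 4 lay above 0 and 5 below, with a median of -0.09. Sem1, a small lid subunit, was at 35.3, 26.4, 29.1 and 34.1 CPM in AM6545 samples A, B, C and E, and at 55.2, 32.5, 51.6, 43.3 and 36.3 CPM in vehicle samples A to E. Only vehicle sample B reached into the AM6545 range, and the log2 fold change was -0.49 ± 0.15 (SE), with an adjusted p of 0.653 by edgeR. Pomp, which matures the core, was at 98.9, 99.4, 102 and 87.0 CPM in the AM6545 samples and at 127.5, 99.9, 123, 119 and 106 CPM in the vehicle samples. Vehicle sample B again lay within the AM6545 range, and the log2 fold change was -0.25 ± 0.10 (SE). Unlike the core rings, Sem1 was not low in AM6545 sample E.

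The genes that make and deliver ubiquitin had 14 tested members, of which 10 lay above 0, with a median of 0.04. Uba1, the enzyme that activates ubiquitin, was at 382, 448, 327 and 224 CPM in AM6545 samples A, B, C and E, and at 191, 298, 254, 291 and 286 CPM in vehicle samples A to E. Its samples were ordered much as for Psmd2 and Psmd3, with AM6545 A, B and C above all vehicle samples, and its log2 fold change was 0.39 ± 0.18 (SE). Without AM6545 sample B it was 0.23, with an unadjusted p of 0.203. Rps27a, a fusion of ubiquitin and a ribosomal protein, was at 45.4, 44.5, 46.4 and 47.1 CPM in the AM6545 samples and at 84.2, 48.0, 67.3, 61.4 and 46.4 CPM in the vehicle samples. Its vehicle samples spread far more widely than its AM6545 samples, and the log2 fold change was -0.42 ± 0.15 (SE). With the length trend removed it was -0.20, with an unadjusted p of 0.0553. Over all 9 samples, with no such correction, Uba1 and Rps27a each had an unadjusted p under 0.05 and an adjusted p of 0.653 by edgeR.

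Among 5 regulators of proteasome genes, 2 lay above 0, with a median of -0.07. Nfe2l1, the factor that induces proteasome genes when the complex is inhibited, was at 172, 153, 174 and 202 CPM in AM6545 samples A, B, C and E, and at 149, 174, 159, 140 and 159 CPM in vehicle samples A to E. It was highest in AM6545 sample E, where most members were lowest, and the log2 fold change was 0.17 ± 0.10 (SE), with an adjusted p of 0.667 by edgeR. Without AM6545 sample E it was 0.09. Of 10 genes of class I antigen presentation, which displays the peptides that proteasomes make, 9 were tested, and 4 lay above 0 with a median of -0.03. B2m, the light chain of the class I molecule, was at 104, 107, 98.9 and 123 CPM in the AM6545 samples and at 173, 132, 126, 151 and 106 CPM in the vehicle samples. Vehicle sample E lay inside the AM6545 range, and the log2 fold change was -0.34 ± 0.13 (SE), with an adjusted p of 0.653 by edgeR. With the length trend removed it was -0.16, with an unadjusted p of 0.164.

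Some levels carry a limit from sequence. Of the members, 9 have a pseudogene at least 95% identical over at least 300 bases, 15 such pseudogenes in all, and 0 of these have a row in the table. The 9 members are Psma2, Psma3, Psma4, Psma5, Psmb3, Psmb5, Psmc1, Psmd2 and Psmd11. A further limit is overlap: 8 members share at least 50 exonic bases with another gene of the table. On the opposite strand these include Psmb9 with Tap1 (212 bases), Psmd1 with Htr2b (252 bases) and Psmb7 with Nek6 (253 bases). On the same strand, Psmd1 shares 154 bases with Gm21972, and Psmg3 shares 280 bases with Gm26938. How reads from these stretches were divided cannot be told from the counts.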

How the data were processed

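RNA was extracted from synaptoneurosome fractions of frozen hippocampus with a QIAGEN column kit, and its libraries (SMARTer Ultra Low Input) were read on an Illumina NovaSeq instrument, as the labels' protocols state. The values are estimated counts per gene, as the authors deposited them; 56.6% to 69.4% of the values in a sample are exactly whole, zeros included. The submitters' processing notes name Salmon 1.3, DESeq2 1.30, GRCm39 and mm10, with no role for each. The annotation release and strand setting are not given in the sources used here. The number of samples limits the precision.

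Symbols were found for 22155 of the 22255 identifiers, matched without version to GENCODE M21. The estimated counts were rounded, filtered with filterByExpr and scaled with TMM in edgeR 4.0.16 (R 4.3.3). AM6545 was compared with vehicle over all 9 samples by the quasi-likelihood test, with Benjamini-Hochberg adjustment over all 14512 tested genes and a threshold of 0.05. Standard errors were derived from the fold change and its F statistic (size over the root of F). Fold changes are AM6545 over vehicle. Lists are described by counts and medians, with no test of a list. Correlations between genes use log2(CPM + 0.5). The comparison of same-lettered samples and the length trend use log2 CPM with a prior count of 2.

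Lengths are those of the APPRIS principal transcript, the longest where several have the same tag. Similar transcripts were found with blastn 2.17.0. Upstream sequences are from RefSeq.

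Alternatives were other size factors, total counts, other count filters, DESeq2 1.42.0, limma-voom (limma 3.58.1), the replicate block, removal of a lowess trend (span 0.3) on transcript length, and each sample left out. Members given per sample were the catalytic subunits and their immune counterparts, the member with the smallest p in each role, and members with an unadjusted p under 0.05. Pathway genes were named at an unadjusted p under 0.05, with Nfe2l1 and Pomp. The other values quoted were chosen after the data were seen. The members and lists were chosen with earlier results of these data known, and Psme2b was given its role after the table was read.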

Additional observations from a re-analysis of the deposited data

Results flagged for a closer look

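The mean level of the 14 tested core ring genes was 93.6 CPM per kb in AM6545 sample E, far below the other 3 AM6545 samples, which lay between 120.7 and 122 CPM per kb. Psmb7 was at 104.7 CPM in vehicle sample C, above the other 4 vehicle samples, which lay between 88.4 and 91.2 CPM. These were the 2 values found in 36 groups of samples by the gap between the outermost sample and its neighbour, divided by the range of the group. Chance gives about 1 in 20 such values, which is 1.8 in 36 groups. No explanation of either value was tested.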

How the results depend on the processing

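Of 17 alternatives, none gave a member with an adjusted p under 0.05. The median over the members kept to within 0.129, the SD between samples of a group, of its value, and ran from -0.08 to 0.02 with each sample left out. That margin is wider than the median of -0.05 is from 0. The sign of the median turned without AM6545 sample E (0.02) and with the length trend removed (0.04). Over all genes, 0 to 1 passed with a sample left out, and the 1 appeared without AM6545 sample A. Of 255 alternative log2 fold changes of the 15 members given per sample, 29 had the other sign, over 8 members. By DESeq2 Psmc3ip was at 0.0013. By limma-voom Psmb8 was at 0.0045, Psmb9 at 0.0619 and Psmc3ip at 0.0150. With the length trend removed, Psmb5 was at 0.12, Psmb6 at 0.14, Psmb7 at 0.0554, Psmb8 at 0.0298, Psmb9 at 0.0016, Psmc3ip at 0.0779, Psme2 at 0.0040 and Psmg4 at 0.0855; length is what that setting changes. With a sample left out, values ran from -0.0915 to 0.0491 for Psmb5, -0.10 to 0.0190 for Psmb6, -0.10 to 0.0376 for Psmb7, -0.10 to 0.0802 for Psmb8, -0.29 to 0.19 for Psmb9 and -0.0831 to 0.0699 for Psmc3ip. Those of Psmc6 ran from -0.19 to -0.08, of Psme2 from -0.19 to -0.09, of Psmg4 from -0.28 to -0.12 and of Psmb10 from 0.0001 to 0.11. The median of the 14 core genes ran from -0.13 to 0.003 and that of the 17 regulatory genes from -0.03 to 0.12. No cause of the changes of sign was tested.

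With the letters as a replicate block, Psmb5 was at 0.0071, Psmb8 at 0.0501 and Psmb9 at 0.0486, and the median over the members was -0.02; the block leaves out vehicle sample D, and no gene passed. Deviations of same-lettered samples correlated at -0.018 (A), 0.037 (B), 0.336 (C) and -0.021 (E), and 2 of 8 samples correlated best with their own letter. The labels do not say what a letter stands for, and these few values cannot tell whether same-lettered samples are pairs. At an unadjusted p under 0.05 the count of all genes ran from 496 without vehicle sample A to 1848 without AM6545 sample E, against 1047. Psmb8, Psmb9 and Psmg4 rest on few counts, and differences of the size of their standard errors could not be seen.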

Other observations

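Outside the proteasome, genes whose sample profile was most like that of the base subunits included the chaperonin that folds actin and tubulin. The measure was the Pearson correlation of log2 CPM with the mean profile of the 9 base subunits over the 9 samples, a description with no test, and these genes were chosen after their values were seen. Tcp1, a chaperonin subunit, ranked 1 of all tested genes outside the members, at 0.997, and 0.996 without AM6545 sample E. The chaperonin subunits Cct5, Cct4, Cct7, Cct2, Cct8 and Cct3 ranked 11, 25, 32, 43, 52 and 56, and Cct6a ranked 241. Tcp1 was at 198 CPM in AM6545 sample E and between 216 and 384 CPM in the other 8 samples. The glycolytic genes Gapdh (0.993), Aldoa (0.990) and Pgk1 (0.989), the ubiquitin gene Ubb (0.990) and the mitochondrial enzyme gene Idh3g (0.991) were also among the 10 most like the base. Ubb, which supplies the ubiquitin that marks proteins for the proteasome, was at 2361 CPM in AM6545 sample E and between 2725 and 3836 CPM in the other samples. The points share their libraries and scaling.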
